A study of Bos taurus with 9 samples.

Results

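Gene expression in bovine embryos at the 2-cell stage after in vitro fertilisation (IVF) was compared with that in MII oocytes, the mature eggs from which such embryos arise. The comparison used 6 of the 9 libraries of the series, 3 of IVF embryos and 3 of oocytes, and the libraries were grouped by their titles, with no measured value used. All came from cattle (Bos taurus) of the Holstein breed. Each IVF library was made from a pool of 6 embryos, which arise when eggs are fertilised by sperm in culture. Each MII library was made from a pool of 3 unfertilised oocytes, which wait in metaphase of meiosis II for a sperm. For the MII samples the labels give the stage as oocyte and the type as "wild embryos". Ages, sires, culture times and any genotype are not given in the sources used here. Fertilisation, time in culture and pool size changed together between the groups and cannot be told apart. Nothing in the labels says that the pools came from separate animals or cultures, so the spread that the p-values rest on is that of these libraries and may be technical.

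A mature oocyte is nearly silent in transcription and carries a large store of RNA made while it grew. After fertilisation the embryo divides on this store, parts of which are translated, kept or destroyed in a regulated order. In cattle the main activation of the embryo's own genome comes after the 2-cell stage, and only limited transcription is known before it. A library of a 2-cell embryo therefore holds mainly inherited RNA. A difference from the oocyte can reflect removal of old RNA, new RNA or a changed share of kept RNA, and this list is not complete. Whether RNAs were captured alike in oocytes and embryos was not tested.

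Levels are in FPKM, the fragments of a gene per kilobase of its transcript and per 1000000 fragments, a measure relative to the rest of the library. FPKM cannot show whether an embryo holds more or less RNA than an oocyte, and when abundant RNAs lose share the others gain it. Genes were listed as 24616 Ensembl identifiers without names, and 0 of them could be found in the RefSeq gene table for cattle used here. No gene function, position or sequence is therefore given. For the same reason the labelled cell types were not checked against oocyte, cumulus cell or sperm markers, and the part of other cells or of sperm RNA in any difference was not tested. Genes are described by their level, direction and size of change, with 2 identifiers that rose and 2 that fell.

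The libraries separated by group. FPKM values summed to between 1197565 and 1206014 in IVF libraries and to between 1153912 and 1386979 in MII libraries. Read totals were not used here. The steps between low FPKM values gave relative depths of 80.5% of the deepest of the 6 for MII replicate 1 and 94.6% to 100% for the other 5, so the shallowest library was an oocyte library. Across the tested genes, log2(FPKM + 1) correlated at 0.986 to 0.987 within IVF libraries, 0.979 to 0.985 within MII libraries and 0.929 to 0.956 between the groups. The points of these correlations are genes, not independent replicates. MII replicate 2 stood apart from the other oocyte libraries, with an estimated array weight of 0.29 against 0.98 to 1.85 for the others. Results are given without it where they moved.

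More genes were detected in IVF embryos than in oocytes, and fewer genes reached very high levels. At 1 FPKM or more, MII replicates 1, 2 and 3 had 7875, 8300 and 8209 genes and the IVF replicates had 9375, 9230 and 9455. The groups did not overlap, and the means differed by 1225 genes (pooled SD 178, n = 3 per group, two-sided exact permutation p = 0.1, adjusted p = 0.12 over 6 library measures). This test cannot go below 0.1 with 3 against 3 libraries, so it cannot pass 0.05 for any measure with 1 value per library. The difference was 1099 genes without MII replicate 1, the shallowest library, and 1288 with FPKM rescaled to a sum of 1000000. Of the genes tested below, 189 were listed at 0 in some MII library and 48 in some IVF library. Oocyte pools were smaller, at 3 against 6, and the part of pool size was not tested. At 5 FPKM or more, IVF libraries had between 6295 and 6514 genes and MII libraries between 5225 and 5663. The order turned at the top: 160, 164 and 161 genes reached 1000 FPKM in the IVF replicates, against 212, 171 and 192 in the MII replicates (two-sided exact permutation p = 0.1). Within the MII libraries this count followed the FPKM sums, and MII replicate 2, with 171 genes, had the lowest sum of the 6. The count at 1000 FPKM was not taken on rescaled values, so the part of the FPKM sums was not tested. At 100 FPKM the groups overlapped, with 1314 to 1375 genes in IVF and 1221 to 1317 in MII libraries (two-sided exact permutation p = 0.2). The 10 most abundant genes held 26.1% ± 0.337 of the FPKM total in IVF embryos and 26.2% ± 0.784 in oocytes (SD, n = 3 each), a difference smaller than the spread between libraries.

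**Figure D1:**
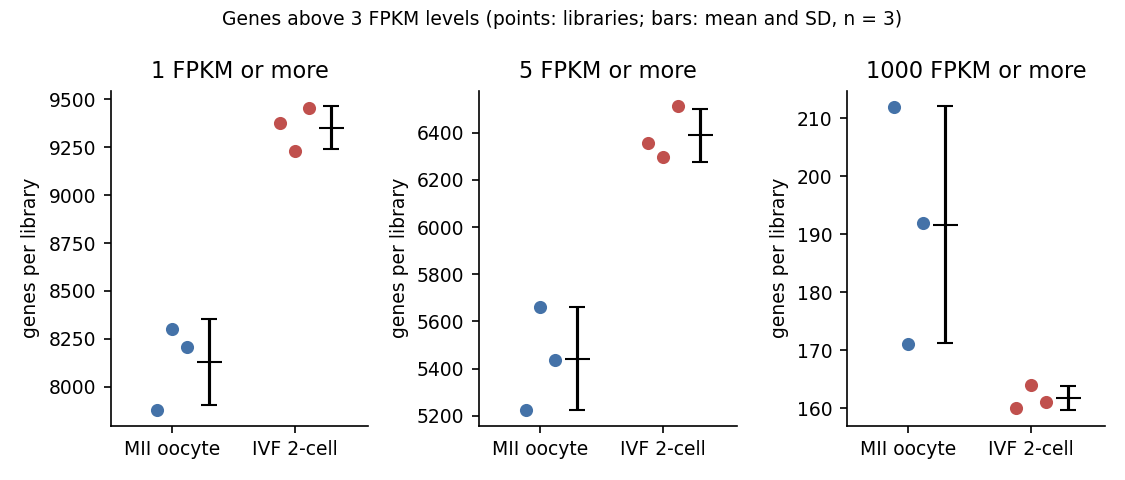
Number of genes per library at or above 1, 5 and 1000 FPKM (vertical axes, which do not start at 0) in MII oocytes and IVF 2-cell embryos; points are libraries and bars are the mean and SD (n = 3). All IVF libraries lie above all MII libraries at 1 and 5 FPKM, and all lie below them at 1000 FPKM, where IVF libraries had 160 to 164 genes.

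For FPKM as deposited, most genes that changed were higher in the embryo, but with quantile normalization 1926 were called higher and 2121 lower. A total of 9076 genes reached 1 FPKM in 3 or more of the 6 libraries and were tested, and 4757 (52.4%) had an adjusted p under 0.05 in limma, a linear model with a shared estimate of the spread. Of these, 3885 (42.8% of the tested genes) were higher in IVF embryos and 872 (9.61%) were lower. The filter admitted 553 tested genes through the IVF libraries only and 7 through the MII libraries only. Such genes had to differ, and 535 of the 553 and all 7 are among the calls. The median change of the called genes was 0.96 for those that rose and -0.78 for those that fell, on the scale of log2(FPKM + 1), which understates the change of low genes. The median over all tested genes was itself 0.39, the 5th percentile -0.78 and the 95th 1.79. In 5482 genes (60.4%) the 3 IVF and the 3 MII values did not overlap, 4386 of them higher and 1096 lower in embryos. Without MII replicate 2, limma called 5254 genes, 4402 higher and 852 lower.

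**Figure D2:**
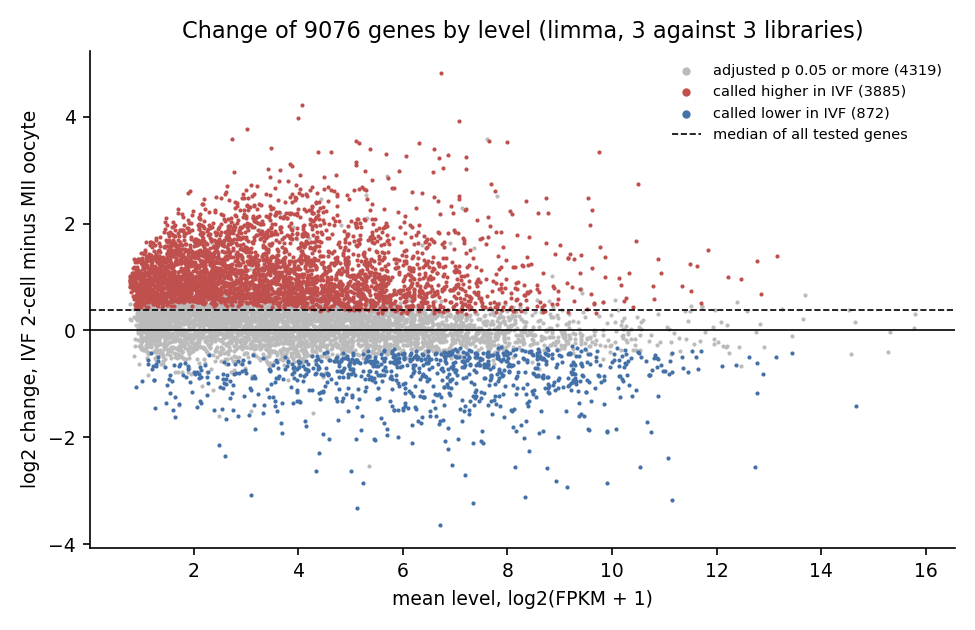
Log2 change from MII oocyte to IVF 2-cell embryo (vertical axis) against mean level (horizontal axis, log2(FPKM + 1)) for each of 9076 tested genes; red and blue points are the 3885 genes called higher and the 872 called lower in IVF embryos by limma. Red points fill the left of the plot, blue points are spread to the right, and the dashed line marks the median change of 0.39.

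Most called genes with a log2 change of at least 1 stood at 1 FPKM or more in every library of the lower group. At least 1 on the log2 scale separated the groups for 1819 called genes that rose (20% of the tested genes) and 270 that fell (2.97%). At 2 or more these numbers were 264 and 35, at 3 or more 29 and 6, and at 4 or more 2 and 0. Of the 2 genes at 4 or more, 0 were at 1 FPKM or more in all oocyte libraries and 0 were under it in all. Their oocyte libraries thus disagreed, and the medians of their group means were 26.5 FPKM in oocytes and 94.6 FPKM in embryos. Among all identifiers, 24 in MII and 17 in IVF libraries were above 20 FPKM and at 0 within the same group. The 1819 genes that rose by at least 1 had a median of 3.13 FPKM in oocytes and 11.4 FPKM in embryos. Of these, 1223 (67.2%) already stood at 1 FPKM or more in every oocyte library, while 296 were under 1 FPKM in all 3. The filter admitted those 296 genes through the IVF libraries only, so they had to differ. The 270 genes that fell by at least 1 started far higher, with a median of 141 FPKM in oocytes and 48.1 FPKM in embryos. Of them, 253 (93.7%) were still at 1 FPKM or more in every embryo library and 223 (82.6%) at 5 FPKM or more. Among the 35 genes that fell by at least 2, the median was 213 FPKM in oocytes and 39.7 FPKM in embryos, and 30 remained at 5 FPKM or more in every embryo library. These levels describe genes chosen by the change and are no test of it.

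Few genes went from under 1 FPKM in every oocyte library to 5 FPKM or more in every embryo library, and with all 6 libraries none went the other way. The counts took genes under 1 FPKM in all libraries of one group and at 5 FPKM or more in all libraries of the other. By this rule 11 genes were gained in IVF embryos and 0 were lost. The 11 lay between 5.04 and 24.6 FPKM in the IVF libraries, with medians of 8.16, 5.80 and 9.59 FPKM in replicates 1, 2 and 3. In the oocyte libraries their medians were 0.439, 0.442 and 0.610 FPKM, and 2 of the 11 were listed at 0 in all 3, where a listed 0 may be a failed estimate. The count was 24 without IVF replicate 2, 23 without MII replicate 3 and 0 when 10 FPKM was asked in every embryo library. The count of lost genes was 1 without IVF replicate 2, without MII replicate 1 or without MII replicate 2. The filter on low values admitted genes unevenly: 553 tested genes were at 1 FPKM or more in all IVF and no MII libraries and 7 the other way round, and such genes had to differ (535 of the 553 were called).

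For FPKM as deposited, the direction of change went with how abundant a gene was. With quantile normalization it did not, and lower calls were slightly more numerous in all 4 classes. That scaling makes the distributions of the libraries equal, which leaves little room for such a shift by construction. Genes were put in 4 classes by their mean FPKM over the 6 libraries. Among 3042 genes under 5 FPKM, 1547 were called higher in IVF embryos and 61 lower (limma, adjusted p under 0.05). The 4722 genes of 5 to 100 FPKM gave 2050 calls upwards and 377 downwards. The balance turned above that: the 1134 genes of 100 to 1000 FPKM gave 265 calls upwards and 365 downwards, and the 178 genes of 1000 FPKM or more gave 23 and 69. In the top class 38.8% of the tested genes were called lower, against 2.01% in the lowest. The lowest class held 556 of the 560 genes that the filter admitted through 1 group only. Without them, an alternative added after seeing the data, 1016 genes of that class were called higher and 54 lower among 2486, which is 40.9% and 2.17%. Genes at 1 FPKM or more in only some libraries of a group were kept, so the filter's effect may not be fully removed.

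**Figure D3:**
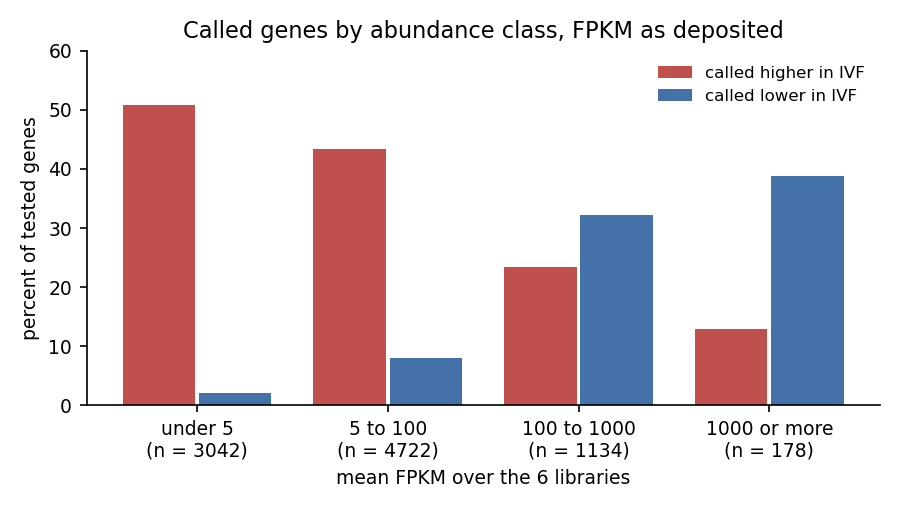
Percent of tested genes called higher (red) or lower (blue) in IVF 2-cell embryos than in MII oocytes (vertical axis, from 0) in 4 classes of mean FPKM (horizontal axis). The red bars shrink from 50.9% to 12.9% from the lowest to the highest class while the blue bars grow from 2.01% to 38.8%, for FPKM as deposited; the lowest class includes 556 genes that passed the filter through 1 group only.

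The class medians of each library turned in the same way for FPKM as deposited. In genes under 5 FPKM the median log2(FPKM + 1) was 1.90 ± 0.0548 in IVF embryos and 1.29 ± 0.113 in oocytes (SD, n = 3 each), a difference of 0.61. It was 0.46 higher in embryos in the class of 5 to 100 FPKM (pooled SD 0.126). In the class of 100 to 1000 FPKM the embryos changed by -0.09 (pooled SD 0.0308) and in that of 1000 FPKM or more by -0.35 (pooled SD 0.139). As deposited, the IVF and MII libraries did not overlap in any of the 4 classes (two-sided exact permutation p = 0.1 each, n = 3 per group, adjusted p = 0.12). Rescaled to 1000000, the class of 100 to 1000 FPKM overlapped, with a difference of -0.0125. With quantile normalization, which makes distributions equal, the differences of the lowest 2 classes turned to -0.0184 and -0.00221. Seen as shares of the library, genes of 5 to 100 FPKM held 11.9% ± 0.476 of the FPKM in IVF embryos and 9.11% ± 1.80 in oocytes (SD, n = 3 each). The lowest IVF share was 11.5% and the highest MII share 11.1% (two-sided exact permutation p = 0.1, adjusted p = 0.2 over the 4 classes). Genes of 1000 FPKM or more held 61.4% ± 1.12 in IVF embryos and 63.4% ± 3.32 in oocytes, where the libraries overlapped (two-sided exact permutation p = 0.5, n = 3 per group).

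How many genes were called in each direction rested on the scaling. Higher genes made up 81.7% of 4757 calls for FPKM as deposited and 85.4% of 4503 for FPKM rescaled to a sum of 1000000. They made up 68.2% of 4485 with median-ratio scaling, which levels the libraries at the median of genes of 10 FPKM or more, and 47.6% of 4047 with quantile normalization, which gives all libraries the same distribution. The median change of all genes was 0.39, 0.43, 0.21 and -0.05 under these 4 scalings. Relative levels do not show which of them is right. Under all 4 of them, 1745 genes were called higher and 607 lower, together 49.4% of the calls, and 0 genes were called in opposite directions. With quantile normalization lower calls outnumbered higher calls in every class, from the lowest to the highest 548 against 467, 1193 against 1116, 330 against 300 and 50 against 43. With median-ratio scaling the lowest 2 classes gave 1290 higher and 105 lower calls and 1597 and 732, and the highest 2 gave 166 and 515, and 7 and 73. Rescaled to 1000000, the lowest class gave 1569 higher and 50 lower calls and the highest 34 and 70. The direction thus went with the level as deposited, rescaled and with median-ratio scaling. Quantile normalization leaves little room for such a shift by construction, so it cannot decide this.

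Between oocyte and embryo, 18.2% of the FPKM total moved from one set of genes to another. This is the sum of the shares lost by all identifiers whose mean share was lower in embryos, which equals the sum gained by the others. Taken between single libraries, it was 18.0% to 22.0% for the 9 pairs of an IVF and an MII library, 6.11% to 8.57% for the 3 IVF pairs and 8.24% to 13.1% for the 3 MII pairs. The pairs share libraries and were not tested. A set of 40 genes accounted for 50% of the share that was lost and 396 genes for 90% of it. For the share that was gained these numbers were 44 and 1432, so its remainder was spread over more genes. Genes of 1000 FPKM or more made 61.7% of the loss and 50.6% of the gain, while genes of 5 to 100 FPKM made 5.32% of the loss and 20.6% of the gain. Genes under 5 FPKM, for all their calls, made 2.68% of the gain. Genes called by limma made 78.5% of the loss and 63.0% of the gain, and the remainder lay on genes that were not called or not tested. By group means, 9 of the 10 and 82 of the 100 most abundant genes were shared between oocytes and embryos. Pairs of libraries within a group shared 89 to 93 of their top 100, and pairs across the groups 77 to 84.

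**Figure D4:**
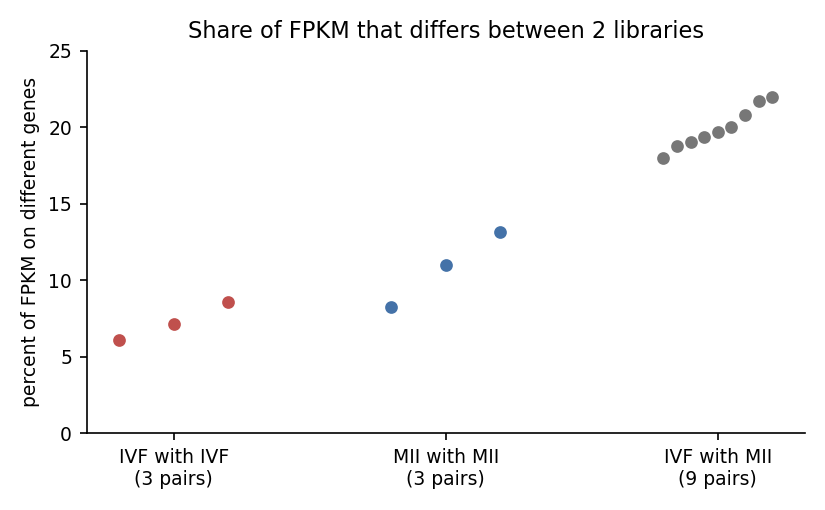
Percent of the FPKM total that lies on different genes in 2 libraries (vertical axis, from 0) for pairs within IVF embryos, within MII oocytes and across the groups; each point is a pair and pairs are sorted by value. All 9 pairs across the groups, from 18.0% to 22.0%, lie above all pairs within a group, of which the highest is 13.1%.

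Single genes are given for the largest differences of mean FPKM among called genes whose libraries did not overlap between the groups and whose higher group averaged 5 FPKM or more. Lack of overlap and an adjusted p under 0.05 were conditions of this choice, so they are no test of these genes. A choice by FPKM difference favours abundant genes, and both genes that fell were abundant in the oocyte. ENSBTAG00000024476 was at 48085, 30097 and 35042 FPKM in MII replicates 1, 2 and 3 and at 13950, 13170 and 14791 FPKM in the IVF replicates. Every embryo value lay below every oocyte value, and the embryo mean was 37.0% of the oocyte mean (log2 change -1.41, SE 0.203, adjusted p = 0.000504, limma). Its share fell from 2.95% ± 0.457 to 1.16% ± 0.0692 of the library (SD, n = 3 each), and its rank moved from 5 to 9. ENSBTAG00000034496 stood at 16015, 5261 and 14130 FPKM in oocyte replicates 1, 2 and 3 and at 1556, 2182 and 1696 FPKM in the embryos. MII replicate 2 was far below the other oocyte libraries but still above every embryo. The embryo mean was 15.3% of the oocyte mean (log2 change -2.56, SE 0.371, adjusted p = 0.000516, limma), and the rank moved from 11 to 83. Without MII replicate 2 the log2 changes of ENSBTAG00000024476 and ENSBTAG00000034496 were -1.56 and -3.07.

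Both genes that rose, chosen in the same way, were also RNAs that the oocyte already held in quantity, which this choice favours. Among all identifiers, whether called or not, the differences of ENSBTAG00000043567 and ENSBTAG00000024605 ranked 2 and 5 upwards, and those of ENSBTAG00000024476 and ENSBTAG00000034496 ranked 1 and 3 downwards. ENSBTAG00000043567 stood at 6562, 2762 and 6307 FPKM in oocyte replicates 1, 2 and 3 and at 12693, 16629 and 9833 FPKM in the embryos. The groups did not overlap, and the mean was 2.51-fold higher in embryos (log2 change 1.39, SE 0.333, adjusted p = 0.00700, limma). Its rank was 32 in oocytes and 11 in embryos. With median-ratio scaling its log2 change was 1.17 and the call was lost (adjusted p = 0.0518, limma; 0.000842 to 0.0518 over 17 alternatives). ENSBTAG00000024605 stood at 4572, 2462 and 5422 FPKM in the oocyte replicates and at 10345, 10854 and 8127 FPKM in the embryos. Again the groups did not overlap, and the mean was 2.35-fold higher after fertilisation (log2 change 1.30, SE 0.276, adjusted p = 0.00380, limma) and ranks of 40 and 14. For both, MII replicate 2 was the lowest oocyte library, and without it the log2 changes of ENSBTAG00000043567 and ENSBTAG00000024605 were 0.99 and 0.96. Set against the median change, the rising genes ENSBTAG00000043567 and ENSBTAG00000024605 changed by 1.00 and 0.91 and the falling genes ENSBTAG00000024476 and ENSBTAG00000034496 by -1.80 and -2.96 on the log2 scale.

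**Figure D5:**
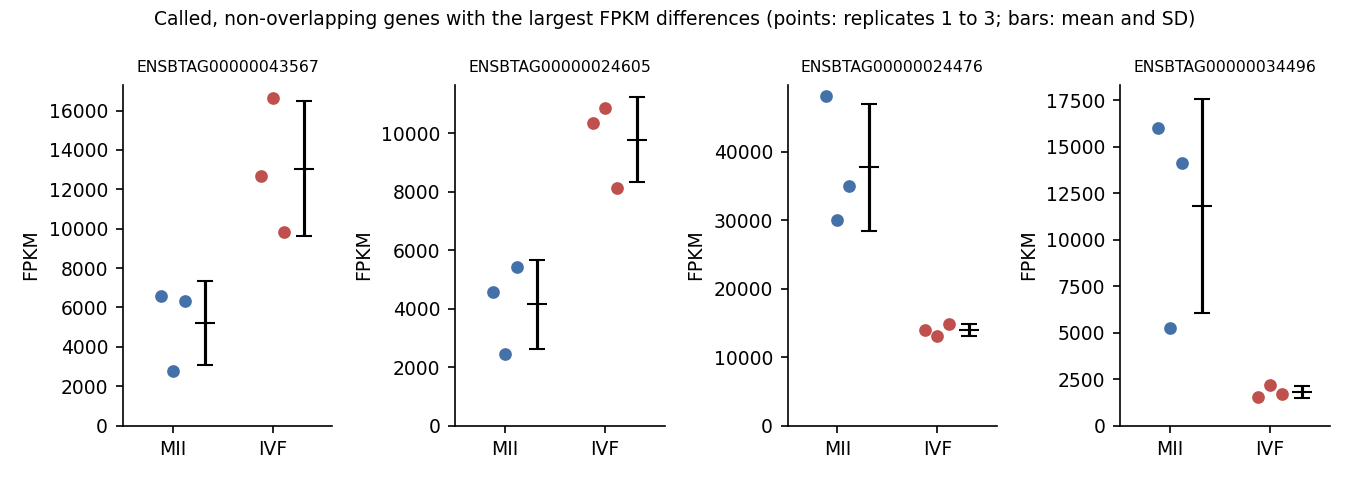
FPKM (vertical axes, from 0) of the 2 identifiers with the largest rise and the 2 with the largest fall in mean FPKM among called genes whose groups did not overlap and whose higher group averaged 5 FPKM or more, in MII oocytes (blue) and IVF 2-cell embryos (red); points are replicates 1 to 3 from left to right and bars are the mean and SD. The groups do not overlap in any panel, and in all 4 the second MII point is the lowest oocyte value, as for ENSBTAG00000034496 at 5261 FPKM.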

How the data were processed

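The authors deposited 1 table of FPKM values for 24616 identifiers and 9 libraries, and the unit comes from the name of the table. RNA was copied with SuperScript III and the cDNA tailed, amplified and sheared, per the labels' protocols. The primer and any marking of strand are not given in the sources used here, so overlapping antisense genes and near-identical copies are uncertain. Per the submitters' processing notes, UMD3.1, bcl2fastq 2.16, HISAT 0.1.6, StringTie 1.0.4, Bowtie2 2.2.5 and RSEM 1.2.12 were used, with no roles given. No counts were used, so no counting interval is given. Relative depth came from the commonest ratio between low values (18.8% to 31.1% of the genes lay within 0.03 of it on the log2 scale), so it is approximate.

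Values were taken as log2(FPKM + 1) for genes that reached 1 FPKM in 3 or more of 6 libraries. Limma 3.58.1 in R 4.3.3 fitted the 6 libraries with a mean-variance trend and Benjamini-Hochberg adjustment over 9076 genes (threshold 0.05); the fit was tested on simulated data. Python 3.11.15, numpy 2.4.6, pandas 2.3.3 and matplotlib 3.10.9 made the other measures and figures. Named identifiers were the 2 per direction with the largest difference of mean FPKM among called genes whose groups did not overlap and whose higher group had a mean of 5 FPKM or more. The comparison, class borders and rules were chosen with earlier results of these data known. The 17 gene lists drawn up by symbol were not analysed here. Alternatives were other pseudocounts, filters and scalings, a replicate block, all 9 libraries, no trend, array weights and leaving out each library.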

Additional observations from a re-analysis of the deposited data

How the results depend on the processing

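The number of genes called, 4757, stayed within 1.5 times of that number in each of the 17 alternatives, from 3329 with a filter of 5 FPKM to 5316 with array weights; with a library left out it ran from 3814 (IVF replicate 3) to 5254 (MII replicate 2). Higher calls numbered 2514 with a filter of 5 FPKM, which tests fewer genes, and 1926 with quantile normalization. Lower calls numbered 1425 under median-ratio scaling and 2121 under quantile normalization. Calls of at least 1 on the log2 scale numbered 957 with a pseudocount of 5, which shrinks changes of low genes by construction, and 1297 with quantile normalization. The median change of all genes was 0.23 with a pseudocount of 5, 0.21 without a filter, 0.21 after median-ratio scaling and -0.0475 after quantile normalization. In the class under 5 FPKM the difference of medians was 0.88 and 0.26 with pseudocounts of 0.1 and 5, 0.31 without a filter, 1.06 with a filter of 5 FPKM, 0.47 after median-ratio scaling and -0.0184 after quantile normalization. In the class of 5 to 100 FPKM it was 0.25 after median-ratio scaling and -0.00221 after quantile normalization. In the class of 100 to 1000 FPKM it was -0.0125 rescaled to 1000000, -0.31 after median-ratio scaling and -0.000897 after quantile normalization. In the class of 1000 FPKM or more it was -0.57 and -0.0201 after the latter scalings. Quantile normalization makes the libraries' distributions equal, so small differences are built into it. Without genes that the filter admitted through 1 group only (added after seeing the data), 1016 genes under 5 FPKM were called higher. The cause of the other changes was not tested. The difference in detected genes was 947 at 5 FPKM, and that of the share of the top 100 genes was -0.82 percentage points. Gained genes numbered 11 to 24 and lost genes 0 to 1 with a library left out, and 0 were gained with cut-offs of 1 and 10 FPKM. With a library left out, the difference in the share of the top 10 genes ran from -0.34 to 0.39 percentage points. Of the calls, 2885 higher and 577 lower held with each library left out in turn. With the replicate block 4304 genes were called, 3558 higher and 746 lower, and the 4 named identifiers kept their calls. Deviations of same-numbered libraries correlated at -0.06, -0.05 and -0.11, so the numbers are not taken to pair the pools. Depth is known only in relative terms, and genes of few reads are the least certain.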

Other observations

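With all 3 libraries of each group, oocyte libraries varied more among themselves than embryo libraries, and MII replicate 2 stood farthest out. Over the 9076 tested genes the median SD of log2(FPKM + 1) between replicates was 0.241 in MII oocytes and 0.156 in IVF embryos, and 68.0% of the genes had the larger SD in oocytes. The gap was present in each class, from 0.246 against 0.197 under 5 FPKM to 0.221 against 0.110 at 1000 FPKM or more. MII replicate 2 lay farther from the other oocyte libraries than they lay from each other: the median absolute difference between MII replicates 1 and 3 was 0.195, against 0.332 between 1 and 2 and 0.311 between 2 and 3. The 3 pairs of IVF libraries differed by 0.168 to 0.196, so without MII replicate 2 the oocyte value lay within the range of the embryo pairs. The oocyte pools were also smaller, at 3 against 6, and the part of pool size was not tested.

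The third group of the series, 2-cell embryos made by somatic cell nuclear transfer (SCNT), took no part in choosing the genes above. The 11 genes gained in IVF embryos had medians of 4.40, 8.59 and 6.69 FPKM in SCNT replicates 1, 2 and 3. In these replicates 4, 9 and 9 of the 11 were at 5 FPKM or more, and 4 were so in all 3. At 1 FPKM or more in all 3 there were 9. The 11 were chosen for 5 FPKM or more in every IVF library, a condition not put on the SCNT libraries. ENSBTAG00000043567 was at 16063, 19255 and 13056 FPKM and ENSBTAG00000024605 at 12850, 15033 and 11938 FPKM in the SCNT replicates. ENSBTAG00000024476 was at 18234, 21814 and 22071 FPKM there, between the IVF and the oocyte values. ENSBTAG00000034496 was at 1386, 2938 and 4377 FPKM, below every oocyte value. These levels were not tested.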
